A study of Mus musculus with 6 samples.

Results

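The 10 genes described here are the cyclins, cyclin-dependent kinases (CDKs) and E2F-RB genes that carry a cell through G1, the phase before DNA replication. They are the D cyclins Ccnd1, Ccnd2 and Ccnd3, the E cyclins Ccne1 and Ccne2, the kinases Cdk2, Cdk4 and Cdk6, the pocket protein gene Rb1 and the transcription factor gene E2f1. They were taken by symbol from the 52636 mouse genes counted in each library. The set itself was chosen from earlier results of the irradiated and untreated libraries, so the members' differences between those groups are given below as a description, without p-values.

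The libraries came from parotid gland, a salivary gland, of mice of the inbred strain FVB, aged 28 days in both groups. The irradiated group held 3 samples given 1 radiation dose of 5 Gy, and the untreated group held 3 samples. The dose text in the labels stands on all 6 samples and was read here as that of the irradiated group alone. The labels do not state how long after irradiation the glands were taken, nor that the samples of a group came from different animals, and the p-values then reflect only a spread between samples that may be technical.

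D cyclins bind CDK4 or CDK6, and E cyclins bind CDK2. These kinases phosphorylate the RB protein, which otherwise holds E2F transcription factors inactive. Released E2F switches on genes for DNA replication, and CDK inhibitors such as p21, the product of Cdkn1a, restrain the kinases. In salivary gland the acinar cells that secrete saliva divide slowly.

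Gene counts totalled 7108359 to 14454646 in the irradiated libraries and 12722189 to 15036193 in the untreated ones. Irradiated replicate 2 stood apart, with the lowest total and 10% of its reads unaligned, where the remaining libraries had 3.75% to 4.33%. Its row of low-quality reads held 184, where the remaining libraries held 342749 to 491591. Reads not aligned uniquely were 18.4% in this library and 13.3% to 16% in the remaining ones. The cause was not tested. Levels below are counts scaled to library size (CPM) with the TMM method. The 7 acinar markers, Bpifa2 and Amy1 among them, summed to 367300 to 466700 CPM in irradiated glands and 403000 to 489200 CPM in untreated glands. All 10 genes passed the filter on low counts, as did 12885 genes in all. The fit of edgeR's quasi-likelihood test called 129 of them at an adjusted p under 0.05, which is 1.00%; 84 (0.652%) were higher and 45 (0.349%) lower in irradiated glands.

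Of the 10 genes, 2 (Ccnd1 and Ccnd2) were past that threshold, both higher in irradiated glands, and 0 were past it on the lower side. Because the contrast was known when the genes were chosen, nothing is read from the count against the background of 0.652%. A set of 5 genes, Ccnd1, Ccnd2, Cdk6, Rb1 and E2f1, had every irradiated library above every untreated one, and 0 had every irradiated library below. Over all genes tested, 10.6% did not overlap on the higher side and 10.6% on the lower side. The median log2 fold change of the 10 genes, irradiated over untreated, was 0.44, beside -0.01 for all genes tested. In whole tissue, more RNA per cell and more cells of an expressing type cannot be told apart, here or in any result that follows.

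**Figure D1:**
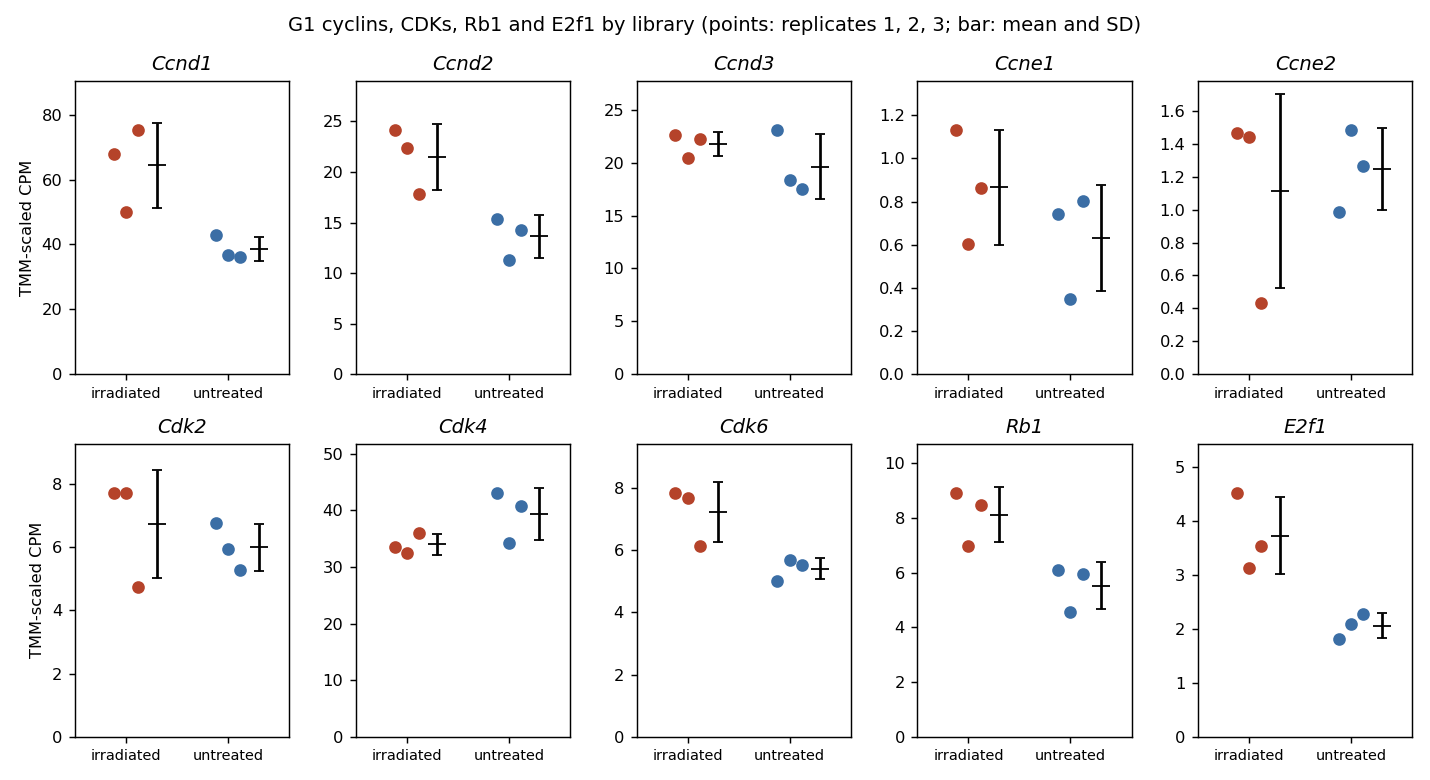
TMM-scaled CPM of each gene in each library, irradiated left and untreated right, with each axis starting at 0; points are replicates 1, 2 and 3 from left to right, and the black bar is the mean and SD of 3. In Ccnd1 the irradiated points lie between 49.9 and 75.4 CPM and the untreated points between 36.2 and 43.0 CPM, while in Ccne2 irradiated replicate 3 lies below all other libraries at 0.432 CPM.

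Among the D cyclins, Ccnd1 and Ccnd2 were higher in every irradiated library than in any untreated one. Ccnd1 (ENSMUSG00000070348; mm10 chr7:144929931-144939925, minus strand) stood at 68.1, 49.9 and 75.4 CPM in irradiated replicates 1, 2 and 3, against 43.0, 36.6 and 36.2 CPM in untreated replicates 1, 2 and 3. The lowest irradiated value, in replicate 2, was above the highest untreated one. Its mean was 64.5 ± 13.1 CPM in irradiated glands and 38.6 ± 3.82 CPM in untreated glands (SD, n = 3 each), and its log2 fold change was 0.74 with a standard error (SE) of 0.14, or 1.67-fold.

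Ccnd2, the second D cyclin (ENSMUSG00000000184; chr6:127125162-127152193, minus strand), had 24.2, 22.4 and 17.9 CPM in the irradiated libraries and 15.3, 11.3 and 14.3 CPM in the untreated ones. The groups did not overlap, but irradiated replicate 3, the highest library for Ccnd1, was the lowest irradiated library for Ccnd2. The log2 fold change of Ccnd2 was 0.66 (SE 0.15), or 1.58-fold. Without irradiated replicate 3 it was 0.77, and that of Ccnd1 was 0.61. Leaving out 1 library ended its place past the threshold in 4 of 6 cases, without irradiated replicates 1 or 2 or untreated replicates 2 or 3, with log2 fold changes of 0.55, 0.63, 0.54 and 0.69. The same step ended the place of Ccnd1 in 3 of 6 cases, without irradiated replicate 1 or untreated replicates 2 or 3, with a log2 fold change of 0.70 in each. Neither gene was past the threshold without robust shrinkage or by limma-voom, at 0.74 and 0.73 for Ccnd1 and 0.66 and 0.65 for Ccnd2.

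Ccnd3, the remaining D cyclin (ENSMUSG00000034165; chr17:47505051-47599691, plus strand), did not separate the groups. It had 22.6, 20.5 and 22.3 CPM in irradiated glands, against 23.1, 18.4 and 17.5 CPM in untreated glands. Untreated replicate 1 was the highest of the 6 libraries. The log2 fold change was 0.15 (SE 0.13).

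The kinase partners of the D cyclins lay on opposite sides of zero. Cdk4 (ENSMUSG00000006728; chr10:127063534-127067920, plus strand) had 33.5, 32.5 and 36.0 CPM in irradiated libraries and 43.1, 34.2 and 40.8 CPM in untreated ones. Untreated replicate 2 fell within the irradiated range, so the groups overlapped, and the log2 fold change of -0.21 (SE 0.11) was not past the threshold. Cdk6 (ENSMUSG00000040274; chr5:3341485-3531008, plus strand) had 7.86, 7.70 and 6.13 CPM in irradiated libraries and 5.02, 5.68 and 5.54 CPM in untreated ones. Cdk6 did not overlap between the groups, with a gap smaller than the spread among the irradiated libraries, and its log2 fold change of 0.42 (SE 0.20) was not past the threshold either.

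Rb1, which encodes the RB protein (ENSMUSG00000022105; chr14:73183673-73325822, minus strand), had 8.92, 6.98 and 8.46 CPM in irradiated glands, against 6.09, 4.55 and 5.94 CPM in untreated glands. Replicate 2 was the lowest library of each group. The means were 8.12 ± 1.02 CPM in irradiated glands and 5.52 ± 0.850 CPM in untreated glands (SD, n = 3 each), and the log2 fold change was 0.56 (SE 0.20).

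E2f1, an activating E2F factor (ENSMUSG00000027490; chr2:154559407-154569892, minus strand), had the highest fold change of the 10 genes with all 6 libraries, but not without irradiated replicate 1 (0.69, beside 0.70 for Ccnd1) or untreated replicate 1 (0.78, beside 0.82). It stood at 4.53, 3.13 and 3.54 CPM in irradiated libraries, resting on 68, 26 and 41 counts, and at 1.81, 2.10 and 2.27 CPM in untreated libraries, resting on 22, 24 and 34 counts. The groups did not overlap. Its log2 fold change was 0.87 with an SE of 0.31, wide at these counts, and it was not past the threshold. Over the alternatives tried, the log2 fold change ran between 0.69 and 1.00 for E2f1 and between 0.44 and 0.69 for Rb1, and neither was past the threshold in any of them.

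The E cyclins and their kinase Cdk2 did not separate the groups, and the E cyclins were near the limit of the depth. Ccne1 (ENSMUSG00000002068; chr7:38097984-38107534, minus strand) had 17, 5 and 10 counts in irradiated libraries and 9, 4 and 12 counts in untreated ones, with a log2 fold change of 0.47 (SE 0.55). Ccne2 (ENSMUSG00000028212; chr4:11191351-11204779, plus strand) had 22, 12 and 5 counts in irradiated libraries and 12, 17 and 19 counts in untreated ones, with a log2 fold change of -0.16 (SE 0.50). The sign for Ccne2 rested on irradiated replicate 3: without it the log2 fold change was 0.22. With SEs of this size, a difference as large as that of Ccnd1 was not detectable for either E cyclin.

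Cdk2 (ENSMUSG00000025358; chr10:128697939-128705031, minus strand) had 7.72, 7.70 and 4.75 CPM in irradiated glands and 6.75, 5.95 and 5.27 CPM in untreated glands. Irradiated replicate 3 was the lowest of all 6 libraries and the other irradiated libraries were the highest. The log2 fold change was 0.17 (SE 0.22).

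**Figure D2:**
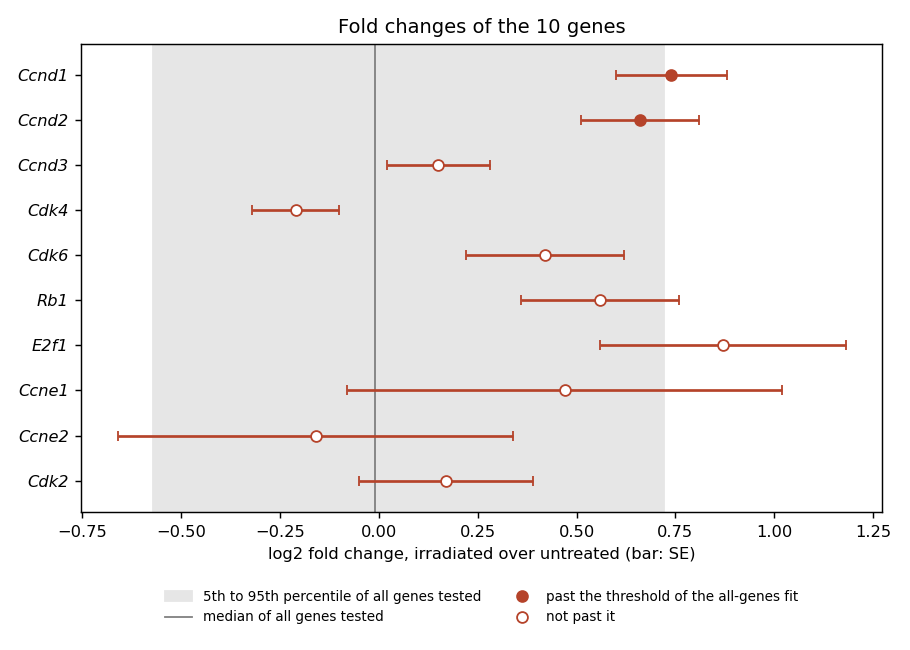
Log2 fold change of each gene, irradiated over untreated, with its SE as a bar, from the fit over all genes; filled points are past the threshold, and grey marks the 5th to 95th percentile of all genes tested (-0.57 to 0.72) with their median (-0.01). Ccnd1 at 0.74 and E2f1 at 0.87 lie beyond the grey band, the other genes within it, and the bars of the E cyclins are the widest.

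Of the 10 genes, 8 share exon bases with a gene annotated on the other strand, and the strand setting of the counting is not given in the sources used here. The longest shared stretch was 1100 bases, between Ccnd1 and the gene annotated as LTO1, out of 4709 exon bases of Ccnd1. Cdk4 shares 641 bases with Tspan31, Ccne2 shares 609 with Ints8, and Rb1 shares 488 with Rcbtb2 and 408 with Lpar6. The counts of these genes are uncertain to that extent. Only Ccne1 and E2f1 among the 10 share none.

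Levels were compared between genes per length, as CPM per kilobase of exon, which the choice of genes did not use. Averaged over the 6 libraries, Cdk4 led with a level of 11.3 ± 1.33 CPM per kilobase and Ccnd1 followed with 10.9 ± 3.52 (SD, n = 6). A step down led to Ccnd3 at 2.36 ± 0.270 and Ccnd2 at 1.87 ± 0.526. Rb1 at 1.13 ± 0.274, Cdk2 at 1.02 ± 0.200 and E2f1 at 0.918 ± 0.328 came next. Cdk6 at 0.452 ± 0.0846, Ccne2 at 0.338 ± 0.118 and Ccne1 at 0.281 ± 0.0985 CPM per kilobase closed the order.

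Neighbours in this order were tested within libraries by an exact two-sided sign-flip permutation test on the log2 ratio, whose smallest possible p with 6 libraries is 0.03125. Of the 9 neighbouring pairs, 3 reached it, each with the first gene above the second in 6 of 6 libraries. They were Ccnd1 over Ccnd3 (mean log2 ratio 2.16), Ccnd2 over Rb1 (0.71) and E2f1 over Cdk6 (0.97). Adjusted by Benjamini-Hochberg over the 9 pairs, the exact p of each was 0.09375, so no neighbouring pair passed 0.05. For Cdk4 over Ccnd1 the log2 ratio over the 6 libraries was 0.10 ± 0.54 (SD, n = 6, exact permutation p = 0.6875). This pools 2 groups of opposite order, Ccnd1 being above Cdk4 in the irradiated libraries and below it in the untreated ones. The SD thus includes the difference between the groups. Rb1 and Cdk2 exchanged places when the longest transcript was used as the length. With that length the mean log2 ratio was 1.31 for Ccnd1 over Ccnd3, 0.99 for Ccnd3 over Ccnd2, 0.94 for Cdk2 over E2f1 and 0.43 for Cdk4 over Ccnd1. The lowest adjusted exact permutation p was then 0.05625, shared by 5 pairs, so again none passed 0.05. As even 5 pairs at the smallest possible p did not pass, the outcome was limited by the 6 libraries. A pair that did not pass is therefore not read as equal in level. The order itself was taken from the means of these same libraries. Between Ccne2 and Ccne1 the log2 ratio was 0.24 ± 1.03 (SD, n = 6).

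**Figure D3:**
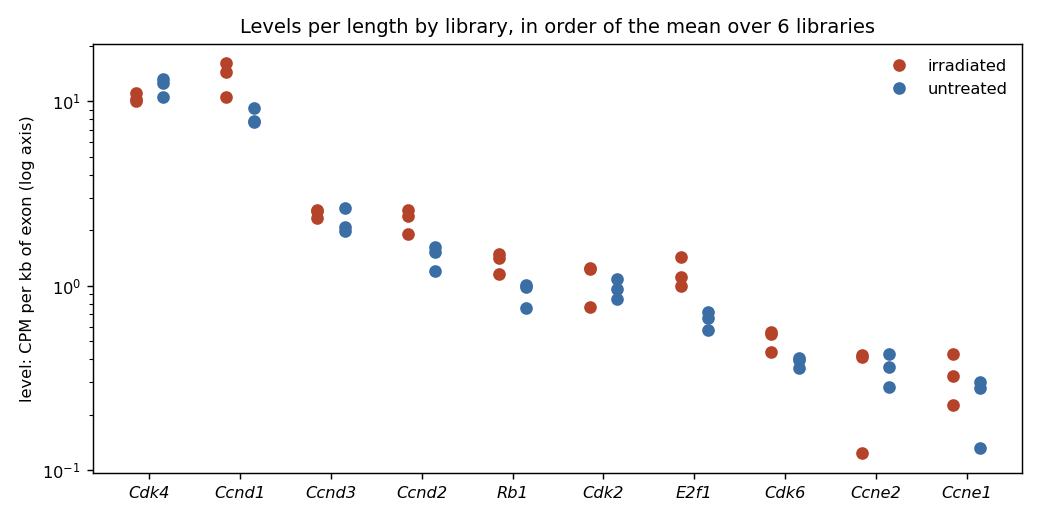
Level of each gene per library in CPM per kilobase of exon, on a log axis, with irradiated libraries left of untreated ones and genes in order of the mean over 6 libraries. Cdk4 and Ccnd1 lie above all other genes in every library, and Ccnd1 lies above Cdk4 in the irradiated libraries and below it in the untreated ones.

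The order at the top differed between the groups. In irradiated glands Ccnd1 led with a level of 13.7 ± 2.78 CPM per kilobase, ahead of Cdk4 at 10.5 ± 0.559. In untreated glands Ccnd1 had 8.20 ± 0.811 and stood second to Cdk4 at 12.1 ± 1.43 (SD, n = 3 each). Since the fold changes of these genes were known when they were chosen, this is a description. It also depends on the length used. With the longest transcript, 3740 bases for Ccnd1 and 2053 for Cdk4, Ccnd1 was below Cdk4 in irradiated replicate 2.

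Summed per length, the D cyclins reached 19.6, 15.3 and 20.4 CPM per kilobase in irradiated libraries and 13.4, 11.1 and 11.2 in untreated ones. Cdk4 and Cdk6 together had 10.9, 10.5 and 11.5 CPM per kilobase in irradiated libraries and 13.6, 10.9 and 12.9 in untreated ones. The ratio of D cyclin to Cdk4 plus Cdk6 transcript was therefore 1.80, 1.45 and 1.78 in irradiated glands, against 0.983, 1.01 and 0.866 in untreated glands, without overlap. Ratios of RNA do not give ratios of protein, and this ratio, built from the same known fold changes, is likewise a description.

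The make-up of the D cyclin level follows from the same known fold changes, so its shares are a description too. Ccnd1 gave 73.8% ± 4.52 of it in irradiated glands and 69.1% ± 1.09 in untreated glands (SD, n = 3 each), and irradiated replicate 2, at 69.3%, fell within the untreated range. Ccnd2 gave 12.6% ± 3.15 in irradiated and 12.2% ± 1.36 in untreated glands. The share of Ccnd3 was 13.2%, 15.2% and 12.4% in irradiated libraries and 19.7%, 18.9% and 17.8% in untreated ones, without overlap. For E2f1 over Rb1 the ratio of levels was 0.874 ± 0.0865 in irradiated and 0.725 ± 0.157 in untreated glands, and the groups overlapped.

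Other genes of the pathway, in 5 lists, were read from the same fit, in which edgeR's p-values are adjusted over all 12885 genes. These lists, like the 10 genes, were chosen with earlier results of this contrast known, so their counts, set beside the background, and their p-values are no independent evidence of a direction. Of 22 textbook E2F target genes of S phase listed, 21 were tested, 3 were called higher and 0 lower, and all 21 had a log2 fold change above zero in the main fit and in every alternative, with a median of 0.73. Groups did not overlap for 13 of the 21, all higher, beside 10.6% of all genes tested.

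The 3 E2F targets called encode subunits of MCM, the helicase that opens DNA for replication. Mcm5 had 7.26, 6.38 and 4.40 CPM in irradiated libraries and 1.73, 1.57 and 2.07 CPM in untreated ones (log2 fold change 1.74, SE 0.29, edgeR adjusted p = 0.00414). Mcm3 had 7.39, 3.97 and 4.84 CPM in irradiated libraries and 1.32, 1.92 and 2.94 CPM in untreated ones (1.39, SE 0.32, edgeR adjusted p = 0.0405). Mcm2 had 11.8, 9.50 and 7.51 CPM in irradiated libraries and 5.18, 6.03 and 4.74 CPM in untreated ones (0.86, SE 0.20, edgeR adjusted p = 0.0454). Irradiated replicate 1 was the highest library for each, and without it 0 of the list were called by edgeR. With all 6 libraries kept, limma-voom called 0 of the list and DESeq2 called 4. Without irradiated replicate 1 the log2 fold changes were 1.57 for Mcm5, 1.08 for Mcm3 and 0.67 for Mcm2. The call of Mcm5 ended in 1 of 6 such cases. That of Mcm3 ended in 4, without irradiated replicates 1 or 3 or untreated replicates 1 or 2, with log2 fold changes of 1.08, 1.47, 1.15 and 1.34. That of Mcm2 ended in 5, each library but irradiated replicate 3, with log2 fold changes between 0.67 and 0.96.

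**Figure D4:**
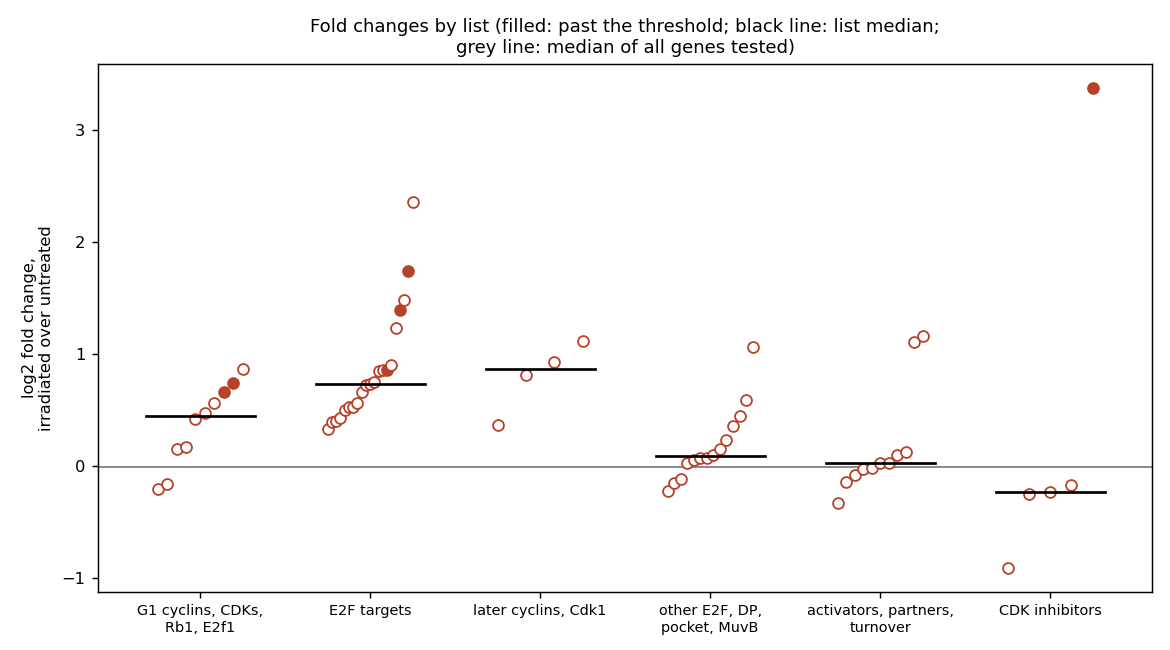
Log2 fold change, irradiated over untreated, of each tested gene of the 10 and of 5 lists around them; filled points are past the threshold, black lines are list medians and the grey line is the median of all genes tested (-0.01). All 21 E2F targets lie above zero, 3 of them filled, and the 1 filled CDK inhibitor is Cdkn1a at 3.38.

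Among 7 CDK inhibitor genes, 5 were tested and Cdkn1a alone was called. Cdkn1a had 21.8, 26.0 and 18.0 CPM in irradiated glands, against 2.14, 1.84 and 2.27 CPM in untreated glands (log2 fold change 3.38, SE 0.19, edgeR adjusted p = 2.03e-09). The other 4 inhibitors tested had log2 fold changes below zero in the main fit, and the list's median was -0.23. Without irradiated replicate 3, and likewise without untreated replicate 3, 2 of the 5 were above zero and the median was -0.14. Cdkn1a, which restrains the kinases, was thus higher in the same libraries as Ccnd1 and Ccnd2, which activate them.

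Cyclins and the CDK of S phase, G2 and mitosis had 4 of 5 genes tested, all above zero in edgeR's fit (3 of 4 with both replicates 2 left out), with a median of 0.87. None was called by edgeR, DESeq2 or limma-voom, and 2 had an unadjusted edgeR p under 0.05, beside 1929 of all 12885 genes tested. Ccna2, the S phase cyclin, had 4.40, 3.37 and 2.07 CPM in irradiated libraries and 1.15, 1.40 and 1.93 CPM in untreated ones, with a log2 fold change of 1.12 (SE 0.37). Cdk1, the mitotic kinase, had a log2 fold change of 0.81 (SE 0.36). Mki67, a marker of cycling cells, was called, with 19.4, 13.0 and 11.7 CPM in irradiated glands and 6.50, 7.69 and 8.14 CPM in untreated glands (log2 fold change 0.99, SE 0.19, edgeR adjusted p = 0.0151). Its call ended without irradiated replicate 1 (0.72) or untreated replicates 1 (0.90) or 2 (1.01). It ended too in edgeR without robust shrinkage (adjusted p = 0.0847), by limma-voom (adjusted p = 0.0891) and in edgeR with both replicates 2 left out (adjusted p = 0.103).

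Of 17 other E2F, DP, pocket protein and MuvB genes listed, 14 were tested and none was called by edgeR, DESeq2 or limma-voom, with 1 unadjusted edgeR p under 0.05 and a median log2 fold change of 0.08. Log2 fold changes were above zero for 11 of the 14, beside 6329 of all 12885 genes tested. That number was 8 with length and GC offsets, 9 without untreated replicate 1 and 13 with library totals alone. The groups did not overlap for 5 of the 14, all higher, beside 10.6% of all genes tested on that side. The list's most abundant members had log2 fold changes of 0.07 (SE 0.11) for Rbbp4, a histone-binding MuvB subunit, and 0.03 (SE 0.12) for Rbl2, the pocket protein p130. Rbl1, the pocket protein p107, which was singled out after its values were seen, had a log2 fold change of 1.06 (SE 0.38, edgeR adjusted p = 0.172). Activators, partners and turnover factors of G1 kinases had 11 of 12 genes tested, none called by edgeR, DESeq2 or limma-voom. Of these, 2 had an unadjusted edgeR p under 0.05, and the median was 0.03. Over all genes tested, 1929 of 12885 had an unadjusted edgeR p under 0.05, so nothing is read from the counts of either list. Cdc37, the chaperone that folds CDK4, had -0.14 (SE 0.11), and Cdc25a, the phosphatase that activates CDK2, had -0.02 (SE 0.12).

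Promoter windows from RefSeq (GRCm38.p6, 250 bases before to 50 after a gene's start) matched 6 of the 10 genes, E2f1, Cdk2, Cdk4, Cdk6, Ccne1 and Ccnd3. An E2F word was searched on both strands as 8 spellings, TTT, then C or G at the next 2 bases, then CG, then C or G. It stood in 1 of the 6 genes, Cdk2, in 10 of 19 E2F targets with a window (52.6%), and in 4.51% of 32851 windows. Of the other E2F, DP, pocket protein and MuvB genes with a window, 6 of 14 (42.9%) held it, as did 1 of 4 later cyclins and CDK. A gene was counted if any of its windows held the word, while the 4.51% is a share of windows, so the units differ. The stretches of Cdk2 and of Mcm5, the E2F target with the smallest p, show the word in capitals, 5′ to 3′ on the gene's strand. In Mcm5 2 words on opposite strands overlap.
Cdk2, chr10:128705159-128705216, minus strand: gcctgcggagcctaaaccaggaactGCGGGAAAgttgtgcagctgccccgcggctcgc
Mcm5, chr8:75109331-75109392, plus strand: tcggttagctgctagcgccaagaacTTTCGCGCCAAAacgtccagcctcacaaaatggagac

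Cdk4 carries another repeated word. The E-box CACGTG, which reads the same on both strands and was chosen after the windows had been seen, stood at 4 places in the Cdk4 window and at 1 place in the Cdk6 window. It was present in 7.15% of all windows and at 4 or more places in 8 of 32851 (0.0244%). The 250 bases before the start of Cdk4 are shown with the E-boxes in capitals, since Cdk4 had the highest mean level over the 6 libraries, though not in irradiated glands, where Ccnd1 led.
Cdk4, chr10:127063285-127063534, plus strand: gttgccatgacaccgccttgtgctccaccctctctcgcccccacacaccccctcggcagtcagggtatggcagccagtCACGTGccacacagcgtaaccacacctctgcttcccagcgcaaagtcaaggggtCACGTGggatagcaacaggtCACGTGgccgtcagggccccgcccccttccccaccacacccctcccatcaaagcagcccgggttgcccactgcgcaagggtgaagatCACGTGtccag
A word in a window is a description of its letters, and binding was not measured.

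Markers of other cells differed between the same libraries. The sum of 8 T cell markers was 29.8 to 40.5 CPM in irradiated glands and 1.57 to 13.5 CPM in untreated glands, and 7 of the 8 did not overlap. The sum of 7 B cell markers was 34.5 to 35.8 CPM in irradiated glands and 0.525 to 18.0 CPM in untreated glands, and 7 of 7 did not overlap. In untreated replicate 2, Cd3g, Cd79a and Cd79b were at 0. Duct markers summed to 204 to 260 CPM in irradiated and 277 to 333 CPM in untreated glands, and macrophage markers to 168 to 175 CPM in irradiated and 141 to 177 CPM in untreated glands. Basal and myoepithelial markers summed to 58.5 to 79.3 CPM in irradiated and 79.9 to 89.0 CPM in untreated glands. Endothelial markers overlapped, at 76.4 to 90.7 CPM in irradiated and 69.4 to 77.6 CPM in untreated glands, as did fat cell markers, at 112 to 189 CPM in irradiated and 146 to 298 CPM in untreated glands. Fibroblast markers overlapped, at 836 to 1136 CPM in irradiated and 1041 to 1707 CPM in untreated glands. Skeletal muscle markers did not, at 149 to 449 CPM in irradiated and 463 to 572 CPM in untreated glands. On the lower side, groups did not overlap for 3 of 7 acinar, 3 of 7 macrophage and 4 of 5 muscle markers. The same held for 2 of 6 duct, 1 of 6 basal and myoepithelial and 1 of 6 fibroblast markers. On the higher side it held for 1 of 7 macrophage and 1 of 6 endothelial markers. Fat cell markers had 0 on either side. Over all genes tested the share was 10.6% on each side.

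Without untreated replicate 2 the log2 fold change was 0.70 for Ccnd1, 0.54 for Ccnd2 and 0.44 for Rb1, beside 0.74, 0.66 and 0.56 with all 6 libraries. It was 0.45 for Cdk6 and 0.88 for E2f1, beside 0.42 and 0.87. The median of the E2F targets was then 0.83, beside 0.73. An alternative chosen after the data were seen left out both replicates numbered 2. The log2 fold change was then 0.86 for Ccnd1, 0.51 for Ccnd2, 0.41 for Cdk6, 0.53 for Rb1 and 0.98 for E2f1. The median of the E2F targets was 0.86, and 1 of the 10 genes, Ccnd1, was called. The part of the lymphocyte markers in the values of Ccnd1, Ccnd2, Cdk6, Rb1, E2f1 and the E2F targets was not tested.

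**Figure D5:**
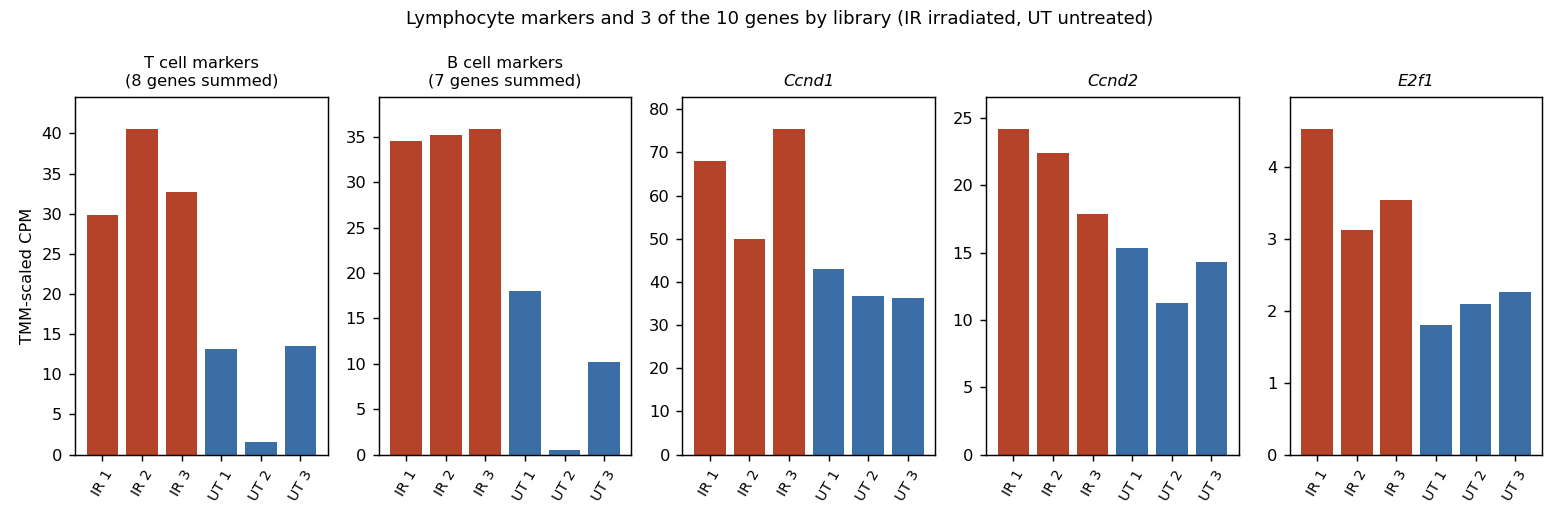
TMM-scaled CPM in each library, irradiated (IR) left of untreated (UT), of summed T cell and B cell markers and of Ccnd1, Ccnd2 and E2f1, with bars starting at 0. Untreated replicate 2 is lowest for both marker sums (1.57 and 0.525 CPM) and for Ccnd2 (11.3 CPM), and not for Ccnd1 or E2f1.

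Profiles over the 6 libraries were compared among the 10 genes and the genes of the lists, by the root mean square difference of centred log2 CPM (64 other genes for each). E2f1 was nearest to Cks2, a CDK subunit, at 0.074, and Ccnd3 to Fbxw7, a subunit of a ubiquitin ligase, at 0.062. Cdk4 was nearest to Cdkn1b, the inhibitor p27, at 0.091, and Cdk6 to Rrm2, a subunit of ribonucleotide reductase, at 0.126. Ccnd2 was nearest to Pcna, the replication clamp, at 0.158, Rb1 to E2f3, another E2F factor, at 0.144, and Ccnd1 to Rb1 at 0.173. Ccne1 was nearest to Rb1 at 0.160, and Ccne2, the least matched of the 10 genes, to Cdk2 at 0.287. Cks2 rested on 5 to 24 counts a library, and Ccne2 on 5 to 22. The 0.5 CPM added before the log shrinks differences most in genes at such levels. In the fit, the log2 fold change was 1.11 (SE 0.50) for Cks2, beside 0.87 for E2f1. How near a gene among 64 comes by chance was not tested, so each match is a description.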

How the data were processed

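The authors deposited raw read counts (whole numbers) by Ensembl gene ID, in a table for each sample. The submitters' processing notes name HISAT2, HTSeq and the build mm10; versions, annotation release and strand setting are not given in the sources used here. Rows naming no gene (32.4% to 40.7% of reads) were left out. Symbols came from GENCODE M21, matching 52489 of 52636 IDs. Counts were fitted with edgeR 4.0.16 (R 4.3.3; quasi-likelihood with robust shrinkage, TMM, filterByExpr with a minimum count of 10) over 12885 genes, with Benjamini-Hochberg adjustment and a threshold of 0.05; the SE is the log2 fold change over the root of its F statistic. The procedure was tested on simulated counts. DESeq2 1.42.0 and limma 3.58.1 were alternatives. No libraries were duplicates. Members and lists were chosen with earlier results of these data known. Named genes were the 10 members, up to 4 called genes of each list by p or else its 2 most abundant, Cdkn1a, Mki67, and each member's nearest profile (pseudocount 0.5 CPM), that of Cdk2 not being reported here.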

Additional observations from a re-analysis of the deposited data

How the results depend on the processing

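The count of 129 genes called became 282 (92.2% higher, beside 65.1%) with library totals alone. That setting put the median log2 fold change of all genes at 0.141, beside -0.007 in the main fit. The count was 518 (53.9% higher) without a filter, 26 (80.8% higher) without robust shrinkage and 25 (80.0% higher) by limma-voom. It was 52 with both replicates 2 left out. Leaving out 1 library gave 45 to 155, the lowest without irradiated replicate 1, with 77 without untreated replicate 2. Of the 2 members called, 0 were called without robust shrinkage, 0 by limma-voom, 1 with length and GC offsets and 1 with both replicates 2 left out, and leaving out 1 library gave 0 to 2. Against 3 E2F targets called, the number was 6 with library totals alone, 6 without a filter, 1 without robust shrinkage, 0 by limma-voom and 0 with both replicates 2 left out, and leaving out 1 library gave 0 to 4. Replicate numbers did not pair the samples (correlations of deviations 0.0199, -0.111 and -0.107); with the replicate block 53 genes, 1 member and 1 E2F target were called, and the log2 fold change of Mki67, 0.96, was not (edgeR adjusted p = 0.0690). Cdkn1a was called in every setting run. Some values near zero changed sign. With length and GC offsets the log2 fold change was -0.06 for Rbbp4 and -0.08 for Rbl2, and with library totals alone 0.01 for Cdc37 and 0.13 for Cdc25a. Leaving out 1 library gave log2 fold changes of -0.47 to 0.22 for Ccne2, -0.07 to 0.11 for Rbl2 and -0.06 to 0.02 for Cdc25a, and log2 ratios of levels of -0.03 to 0.22 for Cdk4 over Ccnd1, -0.01 to 0.23 for Rb1 over Cdk2 and -0.05 to 0.57 for Ccne2 over Ccne1. With the longest transcript, the log2 ratio of Rb1 over Cdk2 was -0.42, and Ccnd1 gave 65.2% of the D cyclin level in irradiated and 58.8% in untreated glands. The causes were not tested. Counts of 4 to 22 a library limit Ccne1 and Ccne2, and 3 libraries a group limit all genes.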

Other observations

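Among the E2F targets, Cdc6, a licensing factor of replication singled out here after its values were seen, had the highest log2 fold change, 2.36 (SE 0.58, edgeR adjusted p = 0.0540). It rested on 32, 12 and 10 counts in irradiated libraries and 4, 2 and 5 counts in untreated ones, with every irradiated library above every untreated one.

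Genes of the lists that did not pass the filter on low counts were E2f7, E2f8, Mybl2, Cdkn2a, Cdkn2b, Orc1, Ccnf and Skp2. Skp2, a subunit of the ubiquitin ligase that marks p27, was listed at 0 in all 6 libraries. Whether its reads stood in the row of ambiguous reads was not tested, so the 0 is not read as absence of the transcript. Cdkn2b, the inhibitor p15, averaged 0.495 ± 0.325 CPM in irradiated glands and 0.288 ± 0.0546 CPM in untreated glands (SD, n = 3 each). It rested on 13, 3 and 3 counts in irradiated libraries and 3, 4 and 4 counts in untreated ones. The higher irradiated mean thus came from replicate 1, and the groups overlapped.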
